A study of Mus musculus with 10 samples.

Results

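The 7 genes described here mark the venous side of the vascular tree in brain endothelium. They are Nr2f2, Ephb4, Ackr1, Slc38a5, Lrg1, Tmem252 and Lcn2, taken by gene symbol from count files that share 23238 symbols, and all 7 had enough counts to be tested. The source was the purified endothelial fraction of brain tumours that grew in C57BL/6 mice after intracranial injection of GL26l glioma cells, with 10 libraries in all. Sox7 was deleted in 2 libraries and Sox17 in 3, and each arm had as many control libraries. In the deficient groups Sox7fl/fl or Sox17fl/fl alleles were excised by Cdh5(BAC)-CreERT2. This is a tamoxifen-inducible recombinase under a promoter of pan-endothelial activity, so the deletion was not aimed at veins alone. The bulk counts do not show excision by vessel type. Tamoxifen was given at 20 mg/kg to the experimental mice, and the labels name neither the alleles nor the treatment of the controls. Effects of tamoxifen or of the recombinase therefore cannot be told apart from those of the deletion. Libraries are numbered in sets of 1 control and 1 deficient library, and no control is shared between the arms. The age of the mice and the number of animals per library are not given, so the spread between libraries may be partly technical.

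Veins and arteries are distinguished early in development. The nuclear receptor Nr2f2 (COUP-TFII) holds down Notch signalling in venous cells, while Notch and the SoxF factors Sox7, Sox17 and Sox18 act on the arterial side. Ephb4 is the venous receptor tyrosine kinase for ephrin-B2, an arterial membrane ligand. Ackr1 is an atypical receptor of post-capillary venules that binds and transports inflammatory chemokines without classical signalling. Slc38a5 is a sodium-coupled carrier of glutamine and other neutral amino acids. Lrg1 is a secreted glycoprotein that acts on TGF-beta signalling through endoglin, and Lcn2 is a secreted lipocalin that binds iron-carrying siderophores. Both are raised by inflammatory cytokines. Tmem252 is a transmembrane protein.

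The genes lie apart in the genome (GRCm38, the assembly also called mm10; GENCODE vM21; all protein-coding). Nr2f2 is on chromosome 7 at 70351944 to 70366735 (minus strand), Ephb4 on chromosome 5 at 137350109 to 137378669 (plus) and Ackr1 on chromosome 1 at 173331886 to 173333750 (minus). Slc38a5 is on chromosome X at 8271133 to 8280179 (plus) and Lrg1 on chromosome 17 at 56119678 to 56122001 (minus). Tmem252 is on chromosome 19 at 24674008 to 24682233 (plus) and Lcn2 on chromosome 2 at 32384633 to 32388252 (minus). Slc38a5, Lrg1, Tmem252 and Lcn2 overlap no other annotated gene. Ackr1 overlaps Cadm3 on the same strand, and reads there cannot be assigned with certainty. Cadm3 had 14 to 816 counts per library, between 0.653% and 17.5% of the Ackr1 count of the same library. Ephb4 overlaps Zan and Nr2f2 overlaps B130024G19Rik, both on the opposite strand, with at most 2.59% and 2.66% of the member's count. The strand setting of the counting is not given in the sources used here.

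Total counts ran from 2085020 (Sox17 control 1) to 35098704 (Sox17-deficient 2), and levels are given as CPM (the count relative to the library size, after scaling by trimmed mean of M-values). Sox7 had 193 and 64 counts in the 2 Sox7 controls and 4 and 5 in the Sox7-deficient libraries (log2 fold change −4.52, SE 1.04; edgeR adjusted p = 1, and 0.298 with the set as a block). The targeted gene Sox17 fell from 119 ± 47.7 to 3.23 ± 3.03 CPM (SD, n = 3 each) after its deletion (edgeR with the set as a block, adjusted p = 0.000897; adjusted p = 0.226 without it). The endothelial genes Pecam1 and Cdh5 were present at 373 to 2104 and 214 to 626 CPM over the 10 libraries. Markers of other cells were uneven. The 16 macrophage and microglia genes summed to 19636 CPM in Sox7-deficient 1, with Csf1r at its highest there (587 CPM), and to between 28.6 and 1147 CPM in the other 9 libraries. The 7 erythroid genes summed to 2910 CPM in Sox17 control 1 and to 36.5 to 430 CPM elsewhere. The geometric mean of 16 pan-endothelial genes, as CPM + 1, was 256 in Sox7-deficient 1 against 479 in its control, and between 399 and 529 in the remaining 8 libraries. In these bulk samples, fewer cells of a type and less RNA per cell cannot be told apart.

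Of the 7 members, 6 were abundant transcripts and Lcn2 was scarce. The kit counts 1 tag per transcript end, so CPM values of different genes can be set side by side. Tmem252 had the highest median over the 10 libraries, at 408 CPM (236 to 669). Lrg1 followed with 370 CPM (54.0 to 788) and Ackr1 with 356 CPM (145 to 1037). Slc38a5 had a median of 148 CPM (79.2 to 210), Ephb4 of 135 CPM (78.7 to 243) and Nr2f2 of 129 CPM (86.7 to 208). Lcn2 had a median of 10.4 CPM (0.079 to 46.8). The first 3 could not be ordered, since Tmem252 exceeded Lrg1 in 5 of 10 libraries and Lrg1 exceeded Ackr1 in 3 of 10. Slc38a5 exceeded Ephb4 in 7 of 10 libraries and Ephb4 exceeded Nr2f2 in 4 of 10, so these 3 also changed places from library to library. Ackr1 exceeded Slc38a5 in 9 of 10 libraries and Nr2f2 exceeded Lcn2 in all 10. The range between libraries differed among members: the highest level was 14.6 times the lowest for Lrg1 and 7.14 times for Ackr1. It was 3.09 times for Ephb4, 2.83 times for Tmem252, 2.65 times for Slc38a5 and 2.40 times for Nr2f2. Control libraries alone were already spread: Lrg1 had 54.0, 116 and 344 CPM in the Sox17 controls and 184 and 633 CPM in the Sox7 controls.

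**Figure D1:**
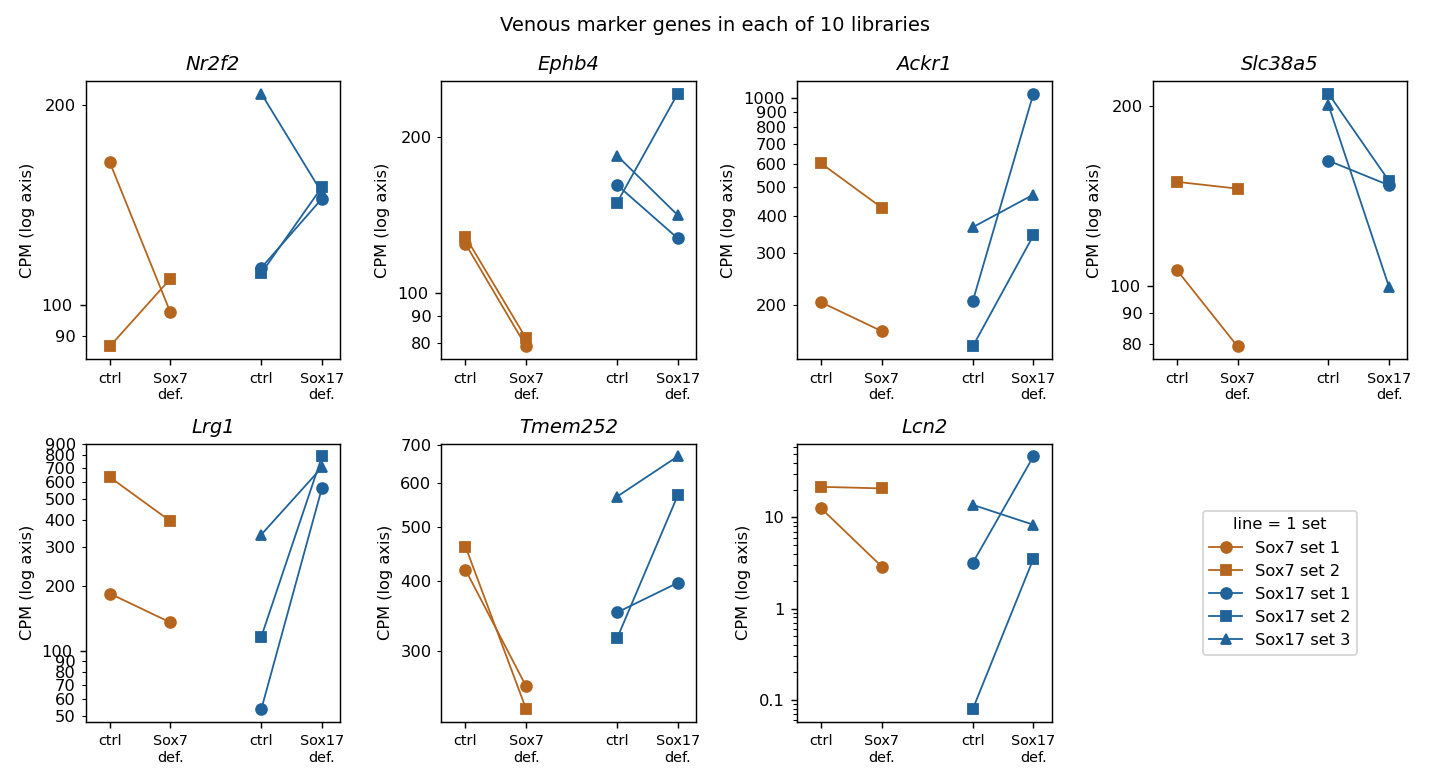
CPM (log axis, a scale of its own per gene) of the 7 venous marker genes in each of 10 libraries; a line joins the control (ctrl) and deficient (def.) library of 1 set, in brown for the Sox7 arm and in blue for the Sox17 arm. All 3 Sox17 lines of Lrg1, Ackr1 and Tmem252 point up and all 3 of Slc38a5 point down. Both Sox7 lines point down for 6 of 7 genes, and for Tmem252 and Ephb4 the Sox7 groups do not overlap.

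The Sox17 comparison asked how these venous transcripts differ when Sox17 is lost. The secreted factor gene Lrg1, the chemokine receptor gene Ackr1 and Tmem252 were higher in every Sox17-deficient library than in the control of its set. The amino acid carrier gene Slc38a5 was lower in all 3 sets, and the identity genes Nr2f2 and Ephb4 went both ways. No member passed edgeR's quasi-likelihood test after adjustment over the 13040 genes tested (adjusted p = 1 for each). No gene of the genome passed either (0.0% called), while 459 genes were at an unadjusted p under 0.05 (0 members among the 2.77% that were lower). DESeq2 called 39 genes, 37 of them among the 13040 tested with edgeR (0.284%) and 0 of them members, limma-voom 0 and edgeR with the set as a block 6. Lrg1 was the member among those 6 (0.046% called).

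Lrg1 was the member with the clearest separation. Its control and deficient counts were 119 and 4102 in the first set, 1474 and 27938 in the second, and 5555 and 5658 in the third. These are 54.0 and 564 CPM, 116 and 788 CPM, and 344 and 702 CPM, so the deficient library was 10.4, 6.77 and 2.04 times its control. The 2 groups did not overlap, and the 3 deficient libraries lay close together while the controls were spread. Over all genes tested, 4.13% were likewise higher without overlap. Genes were ranked by CPM within each library, among the 13040 tested. Lrg1 stood at rank 164 to 173 in the Sox17-deficient libraries and at rank 412, 1616 and 3179 in the Sox17 controls. In Sox7 control 2 it stood at rank 171 (633 CPM), within the range of the Sox17-deficient libraries. Mean levels were 685 ± 113 against 171 ± 153 CPM (SD, n = 3 each), a log2 fold change of 1.99 (SE 0.65, unadjusted p = 0.00845; edgeR adjusted p = 1). With the set as a block it was 2.40 (SE 0.41) and passed over all genes (edgeR adjusted p = 0.0233), as it did without a filter on low counts (1.99, edgeR adjusted p = 0.0129). The block takes set numbers as pairs and leaves fewer residual degrees of freedom than the main fit. Paired deviations in this arm correlated at only 0.072, 0.062 and 0.053. Leaving out 1 library at a time in the main fit gave log2 fold changes between 1.56 (without Sox17 control 1) and 3.001 (without Sox17 control 3).

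In the Sox17 arm Ackr1 had 206 CPM in the control and 1037 CPM in the deficient library of set 1, 145 and 345 CPM in set 2, and 367 and 473 CPM in set 3. The deficient library was 5.02, 2.37 and 1.29 times its control, although the control of set 3 exceeded the deficient library of set 2, so that the groups overlapped. The group means were 618 ± 368 and 240 ± 115 CPM (SD, n = 3 each), and the log2 fold change was 1.37 (SE 0.54, unadjusted p = 0.0221; edgeR adjusted p = 1, and 0.531 with the block). Lrg1 and Ackr1 were the members at an unadjusted p under 0.05 and higher, 2 of 7, against 0.752% of all genes. Leaving out Sox17-deficient 1 brought the Ackr1 value to 0.76. Erythrocytes also carry Ackr1. The summed erythroid genes were lower in each deficient library than in its control (430 against 2910 CPM, 71.6 against 310 CPM and 68.5 against 126 CPM). Their part in the result was not tested.

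Tmem252 had 352 and 397 CPM in Sox17 set 1, 316 and 569 CPM in set 2, and 567 and 669 CPM in set 3. Its differences were 0.18, 0.85 and 0.24 on the log2(CPM + 1) scale, all positive, with overlapping groups. The fitted log2 fold change was 0.41 (SE 0.38), within about 1 standard error of 0. Members higher in every Sox17 set numbered 3 of 7, against 13.1% of all genes tested.

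Lcn2 was measured from few counts. It had 7 and 340 counts in Sox17 set 1 (3.18 and 46.8 CPM), 1 and 125 in set 2 (0.079 and 3.53 CPM) and 222 and 67 in set 3 (13.7 and 8.31 CPM). Sets 1 and 2 were higher and set 3 was lower in the deficient library. The ratio in set 2 was 44.6, with an exact 95% binomial interval of 7.87 to 1780 that covers counting error only. The log2 fold change was 1.76 (SE 1.39), and 0.04 without Sox17-deficient 1, so the size rests on that library. Neutrophils also hold Lcn2 and Lrg1, and reactive astrocytes hold Lcn2. Over the 3 Sox17-deficient libraries the 12 neutrophil genes found in the files summed to 1.74 to 9.26 CPM, with Mpo, Elane, Camp, Ltf, Retnlg and Mmp9 at 0, against 1.74 to 30.6 CPM in the controls. By set they were 3.18 and 3.30 CPM, 1.74 and 9.26 CPM, and 30.6 and 1.74 CPM in control and deficient. The neutrophil sum of the deficient library was thus close to that of its control in set 1, higher in set 2 and lower in set 3. The part of the neutrophil genes in the Lcn2 values was not tested. By set the 9 astrocyte genes summed to 248 and 307 CPM, 534 and 254 CPM, and 263 and 210 CPM in control and deficient. The astrocyte sum was thus higher in the deficient library of set 1 and lower in those of sets 2 and 3. Its part in the Lcn2 values was not tested.

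**Figure D2:**
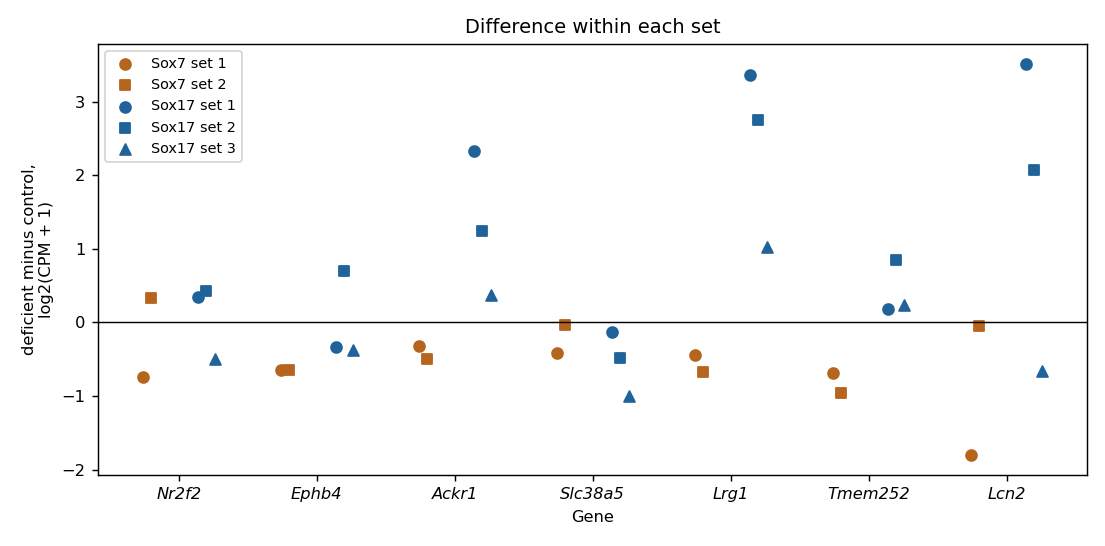
Difference of each deficient library from the control of its set, in log2(CPM + 1), for the 7 genes; 1 point is 1 set, brown for Sox7 and blue for Sox17. Lrg1 has Sox17 points at 3.36, 2.75 and 1.03 and Sox7 points at −0.44 and −0.67, while Slc38a5 has no point above 0.

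Slc38a5 went the other way. Its Sox17 control and deficient levels were 162 and 147 CPM in set 1, 210 and 150 CPM in set 2, and 201 and 99.5 CPM in set 3. All deficient libraries were below all controls, which held downward for 4.23% of the genes tested. The log2 fold change was −0.53 (SE 0.39, unadjusted p = 0.19; edgeR adjusted p = 1), between −0.65 and −0.36 with 1 library left out. Among 10 other amino acid carriers and their partner subunits, 9 had a negative value, 0 passed over all genes and 1 was at an unadjusted p under 0.05. The median was −0.68, against 0.05 for all genes tested. The cationic carrier gene Slc7a1 was at −0.82 (SE 0.37), the large neutral carrier gene Slc7a5 at −0.83 (SE 0.41), the taurine carrier gene Slc6a6 at −0.76 (SE 0.43) and the glutamine carrier gene Slc38a3 at −0.44 (SE 0.47). Slc38a1, a glutamine carrier gene, and Slc38a9, a lysosomal amino acid sensor gene, went both ways between sets. Of the 12 brain capillary genes, a list that also holds Slc7a5, 10 had a negative value (median −0.74; 0 passing, 2 at an unadjusted p under 0.05).

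Nr2f2 and Ephb4 showed no common direction. Nr2f2 had 114 and 145 CPM in Sox17 set 1, 112 and 151 CPM in set 2, and 208 and 148 CPM in set 3. The 3 deficient libraries differed from each other by little (SD 2.97 CPM, n = 3) while the controls varied (SD 55.0 CPM), and the log2 fold change was 0.03 (SE 0.40). It was −0.13 without Sox17 control 1 and −0.14 without Sox17 control 2. Ephb4 had 162 and 127 CPM in set 1, 149 and 243 CPM in set 2, and 184 and 141 CPM in set 3. Its log2 fold change was 0.05 (SE 0.38), −0.30 without Sox17-deficient 2 and −0.03 without Sox17 control 2. Pericytes and lymphatic endothelium also hold Nr2f2. The 10 pericyte genes summed to 238 to 277 CPM in the deficient libraries and 314 to 901 CPM in the controls, and their part in the Nr2f2 value was not tested. The 8 lymphatic genes summed to 95.3 to 152 against 110 to 146 CPM. Most of that sum was Flt4, also on the list of other venous genes (78.1 to 149 against 98.0 to 134 CPM). The lymphatic factor gene Prox1 had a median of 0.014 CPM over the 10 libraries.

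The promoter windows of the 4 genes that kept 1 direction in all Sox17 sets are shown, because Sox17 is a DNA-binding factor. Each is read 5′ to 3′ on the strand of the gene, from 250 bases before to 50 bases after the start in RefSeq on GRCm38.p6, and capitals mark the motif matches named after the sequences. The windows are chr17:56121897-56122196 on the minus strand for Lrg1, chr1:173333454-173333753 on the minus strand for Ackr1, chr19:24673758-24674057 on the plus strand for Tmem252 and chrX:8271131-8271430 on the plus strand for Slc38a5.
Lrg1: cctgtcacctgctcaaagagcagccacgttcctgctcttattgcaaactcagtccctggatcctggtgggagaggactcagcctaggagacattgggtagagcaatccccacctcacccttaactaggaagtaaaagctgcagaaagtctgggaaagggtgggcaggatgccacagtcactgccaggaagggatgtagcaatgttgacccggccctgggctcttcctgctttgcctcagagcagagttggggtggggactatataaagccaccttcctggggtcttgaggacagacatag
Ackr1: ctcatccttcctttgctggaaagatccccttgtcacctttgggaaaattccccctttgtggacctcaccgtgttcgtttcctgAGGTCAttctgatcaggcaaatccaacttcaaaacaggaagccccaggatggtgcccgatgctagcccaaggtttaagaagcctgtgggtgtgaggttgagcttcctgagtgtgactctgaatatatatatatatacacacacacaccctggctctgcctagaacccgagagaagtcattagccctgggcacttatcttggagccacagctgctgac
Tmem252: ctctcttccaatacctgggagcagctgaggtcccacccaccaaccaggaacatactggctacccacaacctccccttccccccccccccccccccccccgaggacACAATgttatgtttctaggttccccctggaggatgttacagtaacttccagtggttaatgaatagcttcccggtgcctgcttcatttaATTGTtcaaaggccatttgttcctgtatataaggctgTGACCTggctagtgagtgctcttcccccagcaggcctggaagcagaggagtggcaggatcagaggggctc
Slc38a5: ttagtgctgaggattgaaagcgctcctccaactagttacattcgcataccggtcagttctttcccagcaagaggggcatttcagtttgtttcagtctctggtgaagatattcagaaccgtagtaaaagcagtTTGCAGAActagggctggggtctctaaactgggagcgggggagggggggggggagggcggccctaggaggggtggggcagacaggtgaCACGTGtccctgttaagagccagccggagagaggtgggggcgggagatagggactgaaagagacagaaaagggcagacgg
Motifs were searched as letters on both strands: ACAAT (core of SOX factors), TTCNNNGAA (STAT), GGGA, any base, TT, any base, CC (NF-kB), TTGCNNAA (C/EBP), GTGGGAA (RBPJ), AGGTCA (the hexamer of nuclear receptors) and CACGTG (E-box of HEY and HES factors). Positions count from the RefSeq start, with bases before it negative. That start is the 5′ end of the GENCODE gene for Tmem252, but lies 55 bases inside it for Lrg1, 247 for Ackr1, 248 for Slc38a5 and 513 for Lcn2, so most or all of the windows of Ackr1, Slc38a5 and Lcn2 is within the GENCODE gene. The Tmem252 window held the SOX core as ACAAT at −145 and on the reverse strand as ATTGT at −57, and the nuclear receptor hexamer on the reverse strand as TGACCT at −20. The Ackr1 window held 1 nuclear receptor hexamer at −167. In Slc38a5 a C/EBP match began at −118 and the E-box at −30. The Lrg1, Nr2f2 and Ephb4 windows held none of the 7 motifs, and Lcn2 held 1 C/EBP match. Of 32851 windows of the same length, 31.0% held the SOX core, 16.3% the nuclear receptor hexamer, 10.8% the C/EBP motif and 7.15% the E-box. STAT, NF-kB and RBPJ motifs, with no match in the 7 windows, were held by 8.3%, 1.2% and 6.38%. No matches overlapped.

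The Sox7 comparison asked the same of Sox7 loss. The venous transcripts were lower in both sets for 6 of 7 members, with Nr2f2 as the exception, against 22.5% of all genes tested that were lower in both. No member was higher in both, against 22.3% of all genes. None passed (edgeR adjusted p = 1 for each; 0.0% of all genes called). There were 195 genes at an unadjusted p under 0.05 (0.851% of genes higher, 0.644% lower), with 0 members among them. DESeq2 called 4 genes, 3 of them among those tested with edgeR (0.023%), limma-voom 0 and edgeR with the block 1 (0.00767%), again with 0 members. The median log2 fold change of the 7 was −0.53, against 0.04 for all genes tested. For the 16 pan-endothelial genes it was −0.54, with 15 negative values. In Sox7 sets 1 and 2, 0 and 4 of these 16 were higher in the deficient library. The lower levels were thus not particular to venous genes.

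Tmem252 and Ephb4 were the 2 members whose Sox7 groups did not overlap, against 12.8% of all genes in the same direction. Tmem252 had 419 and 461 CPM in Sox7 controls 1 and 2 and 259 and 236 CPM in the deficient libraries of the same sets. The means were 440 ± 29.8 and 248 ± 16.4 CPM (SD, n = 2 each), and the log2 fold change was −0.83 (SE 0.47, unadjusted p = 0.0922; edgeR adjusted p = 1). Ephb4 had 124 and 128 CPM in controls and 78.7 and 81.5 CPM in deficient libraries, a log2 fold change of −0.66 (SE 0.47, unadjusted p = 0.176; edgeR adjusted p = 1). Both kept close values when any 1 library was left out, between −0.92 and −0.76 for Tmem252 and between −0.70 and −0.64 for Ephb4.

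Lrg1 and Ackr1 differed more between the 2 Sox7 sets than within them. Lrg1 had 184 CPM in the control and 135 CPM in the deficient library of set 1, and 633 and 397 CPM in set 2. Ackr1 had 205 and 164 CPM in set 1 and 603 and 427 CPM in set 2. For both genes each library of set 2 was above each library of set 1. Their log2 fold changes were −0.62 (SE 0.77) and −0.45 (SE 0.65), and they turned to 0.53 for each without Sox7 control 2. Without Sox7-deficient 1, Ackr1 was at 0.06 and Lrg1 at −0.06.

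Slc38a5 had 106 and 79.2 CPM in Sox7 set 1 and 149 and 145 CPM in set 2 (log2 fold change −0.19, SE 0.48). It was 0.16 without Sox7-deficient 1 and 0.08 without Sox7 control 2. Lcn2 had 12.6 and 2.89 CPM in set 1, from 105 and 20 counts, and 21.7 and 20.8 CPM in set 2 (−0.53, SE 1.66; 0.26 without Sox7-deficient 1). The neutrophil genes summed to 49.7 and 38.8 CPM in set 1 and to 16.1 and 1.19 CPM in set 2, and their part was not tested. Nr2f2 had 164 and 97.6 CPM in set 1 and 86.7 and 110 CPM in set 2 (−0.28, SE 0.49; 0.23 without Sox7 control 1). These 3 genes thus carried most of their lower value in set 1.

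In set 1 the deficient library also had fewer endothelial and more macrophage transcripts, at the values given above, and the part of these in the venous values was not tested. Relative to the mean of the pan-endothelial genes in the same library, 6 of 7 members were higher in Sox7-deficient 1 than in its control, between 0.16 for Nr2f2 and 0.58 for Ackr1 on the log2 scale, with Lcn2 at −0.90. In set 2 the same relative differences were −0.84 for Tmem252, −0.55 for Lrg1, −0.52 for Ephb4 and −0.37 for Ackr1. Slc38a5, Lcn2 and Nr2f2 were there at 0.09, 0.07 and 0.46. In Sox7 set 1 only Lcn2 was thus lower by more than the pan-endothelial mean. In the Sox17 sets that mean differed by 0.02, 0.06 and −0.01, and Lrg1 remained at 3.34, 2.68 and 1.04.

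**Figure D3:**
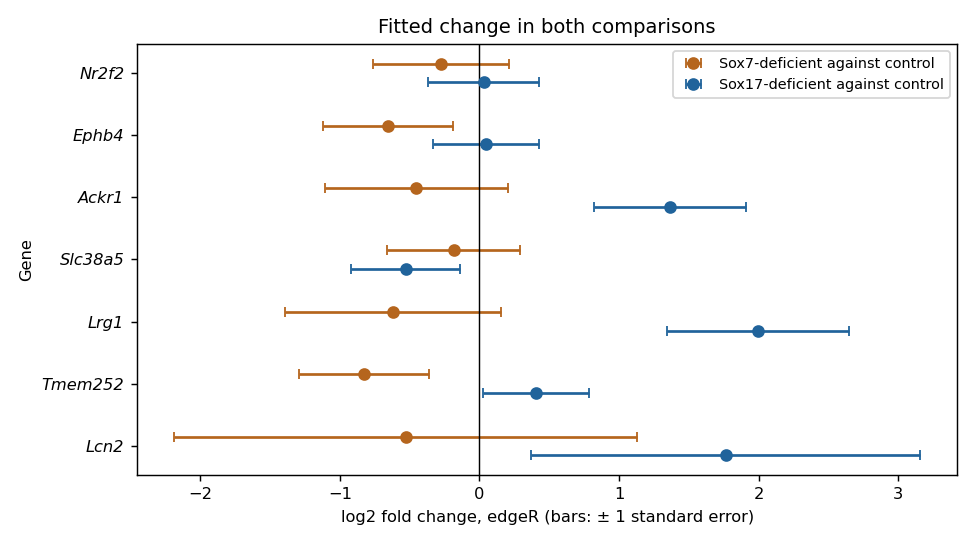
Fitted log2 fold change (edgeR) of the 7 genes in the Sox7 comparison (brown, 2 against 2 libraries) and the Sox17 comparison (blue, 3 against 3), with bars of 1 standard error to each side. The blue points of Lrg1 (1.99), Lcn2 (1.76) and Ackr1 (1.37) are the farthest to the right, and all 7 brown points are left of 0.

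The difference between the arms was tested as Sox7 comparison minus Sox17 comparison. It was −2.61 for Lrg1 (SE 1.01, unadjusted p = 0.0217), −1.82 for Ackr1 (SE 0.85, unadjusted p = 0.0473) and −1.23 for Tmem252 (SE 0.60, unadjusted p = 0.0544), each at an edgeR adjusted p of 1. These 3 genes were lower in both Sox7 sets and higher in all 3 Sox17 sets, a pattern that 3.08% of all genes tested showed. The pattern was not particular to venous genes, since the pan-endothelial genes Egfl7, Clec14a, Icam2 and Eng showed it too. Others of the pan-endothelial list, such as Kdr and Esam, did not. Over all genes 0.0% passed for this difference with edgeR, 374 were at an unadjusted p under 0.05 (1.99% higher, with 0 members, and 0.874% lower, with Lrg1 and Ackr1), DESeq2 called 32, limma-voom 0 and the fit with the block 3 (0.023%, 0 members). The block brought Lrg1 to −2.96 (SE 0.61, edgeR adjusted p = 0.238). The values for the other members were −2.29 for Lcn2 (SE 2.17), −0.70 for Ephb4 (SE 0.60), −0.30 for Nr2f2 (SE 0.63) and 0.34 for Slc38a5 (SE 0.61). Without Sox7 control 2 the difference was −1.47 for Lrg1 and −0.84 for Ackr1. Nr2f2 turned positive without Sox7 control 1 (0.22) and Slc38a5 negative without Sox7-deficient 2 (−0.16).

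Most of the 15 other venous and venular genes had the sign that most members had in each comparison. After Sox17 deletion 11 of 15 had a positive value (median 0.40), 0 passed over all genes and 1 was at an unadjusted p under 0.05. After Sox7 deletion 11 of 15 had a negative value (median −0.54), with 0 passing and 1 at an unadjusted p under 0.05. Vwf, the von Willebrand factor gene, had 263 and 503 CPM, 173 and 265 CPM, and 285 and 394 CPM in the controls and deficient libraries of the Sox17 sets. It had 273 and 139 CPM and 674 and 344 CPM in the Sox7 sets. Vwf was thus higher in 3 of 3 Sox17 sets and lower in 2 of 2 Sox7 sets, at 0.69 (SE 0.45) and −0.97 (SE 0.56). With 1 library left out the Sox7 value ran from −1.77 (without Sox7-deficient 2) to −0.18 (without Sox7 control 2).

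The P-selectin gene Selp, which serves leukocyte rolling, was at −2.11 (SE 1.02) after Sox7 deletion and 0.80 (SE 0.80) after Sox17 deletion, where the difference lay in set 1 (6.81 and 52.1 CPM). The interleukin-1 receptor gene Il1r1 was at −1.96 (SE 0.92) and the protease gene Adamts1 at −0.94 (SE 0.51) after Sox7 deletion. After Sox17 deletion the oxysterol enzyme gene Ch25h was at 0.76 (SE 0.43), with a lower value in the deficient library of set 3. Single libraries moved these values: Selp was at −1.12 without Sox7 control 1 and 0.37 without Sox17 control 1, Il1r1 at −1.10 without Sox7 control 2 and Ch25h at 0.39 without Sox17-deficient 1. The differences between the arms were −1.66 for Vwf (SE 0.72; −0.87 without Sox7 control 2), −2.90 for Selp (SE 1.29) and −2.53 for Il1r1 (SE 1.17), all with an edgeR adjusted p of 1.

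**Figure D4:**
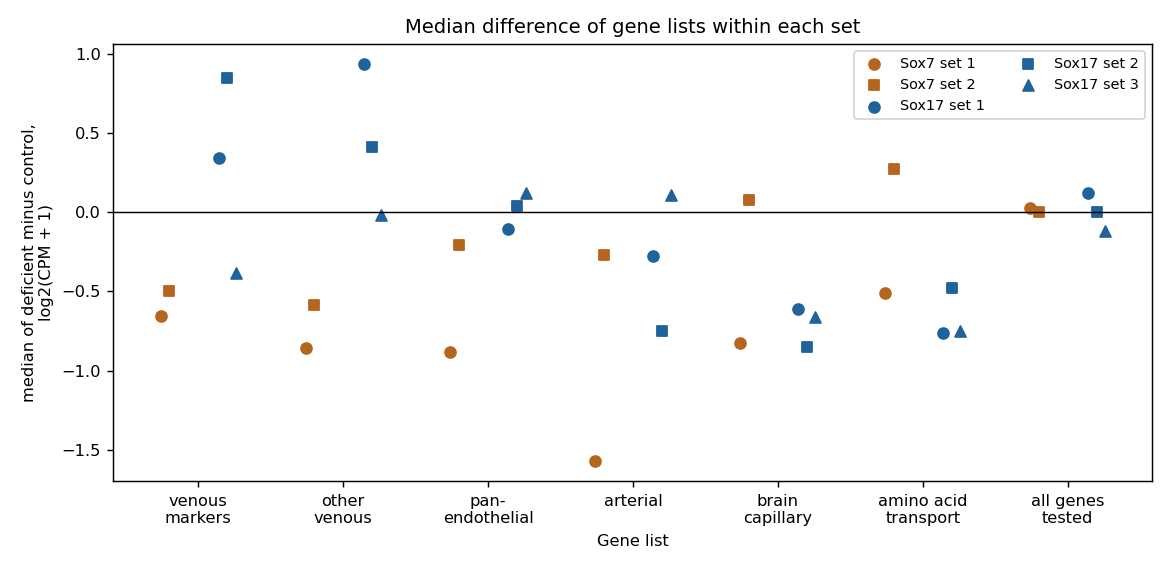
Median difference between deficient and control library, in log2(CPM + 1), of 6 gene lists and of all genes tested; 1 point is 1 set, brown for Sox7 and blue for Sox17. The medians of the venous markers are −0.65 and −0.50 in the Sox7 sets and 0.34, 0.85 and −0.38 in the Sox17 sets, and those of the brain capillary list are below 0 in all Sox17 sets.

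The arterial list, the counterpart of the venous genes, had 13 of 16 members at negative values after Sox17 deletion (median −0.86; 4 at an unadjusted p under 0.05, 0 passing over all genes). After Sox7 deletion 11 of 16 were negative (median −0.88; 0 and 0). The 16 pan-endothelial genes split 8 and 8 after Sox17 deletion (median −0.07) and had 15 negative values after Sox7 deletion (median −0.54). Set 3 stood apart in the Sox17 arm: the medians of its venous members, arterial genes and other venous genes were −0.38, 0.11 and −0.02, against 0.85, −0.75 and 0.41 in set 2.

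Partners of the members were measured in the same libraries. Efnb2, the arterial ligand of Ephb4, was at −0.60 (SE 0.90) after Sox17 deletion and −0.45 (SE 1.10) after Sox7 deletion, from levels of 3.64 to 30.4 CPM. Of 8 tested Eph receptors, ephrins and partners, 6 and 5 had negative values in these comparisons, with 0 passing. Epha4, another Eph receptor gene, was at −1.71 (SE 0.64) after Sox17 deletion, with 0.20 in set 3. Ephb1, a further Eph receptor gene, had 41 and 101 counts in the Sox7 controls and 0 in both Sox7-deficient libraries, but 0 to 107 counts in the Sox17-deficient libraries. Hey1, a Notch target gene on the pathway that Nr2f2 holds down, and the forkhead factor gene Foxc1 were at −1.74 (SE 0.73) and −0.72 (SE 0.44) after Sox17 deletion. Hey1 was not lower in set 3 (18.8 and 21.5 CPM), and its value was −0.79 without Sox17 control 1. In all, 10 of 12 genes of that list were negative (0 passing, 1 at an unadjusted p under 0.05). Single sets were less uniform: 6, 3 and 6 of the 12 were higher in Sox17 sets 1, 2 and 3, with medians of 0.14, −0.56 and 0.002. After Sox7 deletion 5 of those 12 were negative, with Hey1 at −1.17 (SE 0.88), the receptor gene Notch1 at −0.54 (SE 0.49) and the retinoid receptor gene Rxra at 0.78 (SE 0.66). Nr2f1, the paralogue of Nr2f2, had 14.2 ± 6.28 CPM in Sox17 controls and 13.2 ± 10.4 CPM in Sox17-deficient libraries (SD, n = 3 each), and −1.93 (SE 1.75) in the Sox7 comparison.

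Endoglin (Eng), the receptor through which Lrg1 acts, was higher in all 3 Sox17 sets (99.4 and 365 CPM, 435 and 561 CPM, 489 and 580 CPM). Its log2 fold change was 0.56 (SE 0.47) after Sox17 deletion and −0.42 (SE 0.58) after Sox7 deletion. The Sox17 value was 0.11 without Sox17 control 1 and 0.91 without Sox17 control 3. The TGF-beta receptor gene Tgfbr2 was at −0.20 (SE 0.35) and −0.38 (SE 0.43). The signal transducer gene Smad5 was at 0.35 (SE 0.38) and −0.56 (SE 0.46), and the BMP receptor gene Bmpr2 was at −0.77 (SE 0.45) after Sox7 deletion. Of 14 tested genes of this pathway 8 were positive after Sox17 deletion and 5 after Sox7 deletion, with 0 passing and 0 at an unadjusted p under 0.05 in either.

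Among the cytokine response genes, of which Lrg1 and Lcn2 are also raised by interleukins, 9 of 20 were positive after Sox17 deletion (median −0.04; 0 at an unadjusted p under 0.05). After Sox7 deletion 10 of 20 were positive (median 0.03; 3 at an unadjusted p under 0.05, 0 passing). Socs3, a feedback inhibitor of STAT3 signalling, was higher in all 3 Sox17 sets (76.7 and 136 CPM, 123 and 227 CPM, 149 and 202 CPM; log2 0.69, SE 0.43). Cebpb, a transcription factor gene of the acute phase response, was lower in all 3 (36.3 and 17.6 CPM, 68.3 and 34.5 CPM, 74.2 and 42.8 CPM; log2 −0.92, SE 0.59). In the Sox7 comparison Cebpb was at 1.90 (SE 0.74), with 524 CPM in Sox7-deficient 1, the library with the most macrophage transcripts, and −0.32 without it. Slc22a17, a receptor gene for Lcn2, had 12.9 ± 5.64 and 3.65 ± 3.33 CPM in Sox17 control and deficient libraries (SD, n = 3 each; log2 −1.83, SE 1.20).

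Of the chemokines and sister receptors of Ackr1, 7 of 11 tested were positive in either comparison and 0 passed. By set, 9, 2 and 1 of these 11 were higher in Sox17 sets 1, 2 and 3, with medians of 1.37, −0.29 and −0.56. In Sox7 sets 1 and 2 it was 6 and 7 of 11, with medians of 0.08 and 0.87. Cxcl12 was lower in all 3 Sox17-deficient libraries than in their controls (541 against 1510 CPM, 741 against 4122 CPM and 457 against 847 CPM). Its log2 fold change was −1.90 (SE 0.57, unadjusted p = 0.00381; edgeR adjusted p = 1), and −1.03 without Sox17 control 2. The scavenging receptor gene Ackr3 was at −0.73 (SE 0.68), and at 0.11 without Sox17 control 1. Cxcl1, a neutrophil chemokine gene that Ackr1 binds, was lower in both Sox7-deficient libraries (27.4 against 83.1 CPM and 13.7 against 66.3 CPM; log2 −1.86, SE 0.65, unadjusted p = 0.00997; edgeR adjusted p = 1).

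The members did not follow a single pattern over the 10 libraries. Likeness was taken as the Pearson correlation of log2(CPM + 1) over the 10 libraries, which share arm, set and depth, with each of 8320 genes at a mean of 10 CPM or more, and it is given as a description only. The pairs most alike among members were Ackr1 and Lcn2 (0.84), Ackr1 and Lrg1 (0.78) and Ephb4 and Tmem252 (0.74). Slc38a5 was unlike Lrg1 (−0.05), Lcn2 (−0.10) and Ackr1 (0.09). Genes most like Lrg1 were Fkbp5 (0.95) and Myzap (0.95), and most like Ackr1 were Uba1 (0.96) and Ifitm2 (0.95). Tmem252 was most like Atp8b1 (0.93) and Trp53i11 (0.93), Lcn2 most like Fndc3b (0.93) and Zfp521 (0.91), and Ephb4 most like Ptcd3 (0.91) and Mex3c (0.91). Nr2f2 was most like the endothelial genes Ets1 (0.90) and Cdh5 (0.85), and Slc38a5 most like Laptm4a (0.86) and Robo4 (0.85), an endothelial guidance receptor gene.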

How the data were processed

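RNA from purified endothelial cells (Trizol, 500 ng of total RNA per library) was sequenced with the Lexogen QuantSeq kit per the labels' protocols. The authors deposited whole-number counts per gene symbol, 1 file per library, not normalised. Bowtie2, edgeR and mm10 are named in the submitters' processing notes, without roles or versions; the counting tool and its strand setting are not given in the sources used here. The 1183 symbols listed in the Sox17 files alone, all beginning with Mir, were left out, and repeated symbols were summed. The test was that of edgeR 4.0.16 under R 4.3.3 (quasi-likelihood F-test, robust, trimmed mean of M-values scaling, filterByExpr; 13040 genes kept, 10198 removed, 6 residual degrees of freedom, common biological coefficient of variation 0.989), with 1 mean per group over all 10 libraries. P-values were adjusted over all genes by the Benjamini-Hochberg method and read at 0.05. Each SE is the absolute log2 fold change over the root of its F. A floor of 3 counts is 0.0847 CPM in the deepest and 1.36 CPM in the shallowest library. Counts carry no molecular identifiers, so intervals cover counting error only. Alternatives used DESeq2 1.42.0, limma 3.58.1, other scaling, no filter, 1 arm alone, no Rn45s, the set as a block and 1 library left out. Set numbers were taken to pair libraries because the study describes independent sets and, in 4 of 5, both sample descriptions end in the same digits, whose meaning is not stated; the correlation of paired deviations was low, 0.202 in the Sox7 arm and 0.072, 0.062 and 0.053 in Sox17 sets 1, 2 and 3. Members and lists were chosen with earlier results of these data known. The rule for names took all 7 members, the 3 genes of smallest p from each list that bears on a member, 9 fixed partners and the 2 genes most like each member; some of the list genes are given by counts only, a choice made after their values were seen. One gene that this rule selects is not reported here.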

Additional observations from a re-analysis of the deposited data

Results flagged for a closer look

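Lrg1, Ackr1 and Tmem252 drew attention because every Sox7 set moved one way and every Sox17 set the other. The Sox7 change minus the Sox17 change was −2.61 for Lrg1, −1.82 for Ackr1 and −1.23 for Tmem252 on the log2 scale. Within sets, Lrg1 was at −0.44 and −0.67 in the Sox7 arm and 3.36, 2.75 and 1.03 in the Sox17 arm. Ackr1 was at −0.32 and −0.50, and at 2.32, 1.24 and 0.37. Tmem252 was at −0.69 and −0.96, and at 0.18, 0.85 and 0.24. The test of the difference did not pass for any of the 3 (edgeR adjusted p = 1; unadjusted p = 0.0217, 0.0473 and 0.0544), and 3.08% of all genes tested showed the same opposite pattern. The pan-endothelial genes Egfl7, Clec14a, Icam2 and Eng were among the genes that showed it. Relative to the pan-endothelial genes, the Sox7 set 1 differences of these genes were above 0 (0.47, 0.58 and 0.22), so the opposite direction then rests on Sox7 set 2.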

How the results depend on the processing

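No gene passed the threshold in the 3 comparisons, and the counts of calls moved with the test. In the Sox7 comparison there were 58 calls without a filter, 4 with DESeq2, 1 with the replicate block and 0 to 14 with 1 library left out (14 without Sox7-deficient 1, 3 without Sox7 control 1). In the Sox17 comparison there were 30, 39 and 6, with 0 to 1 on leaving out a library, and in the difference between the arms 58, 32 and 3, with 0 to 9 (9 without Sox7-deficient 1). Of the members, 1 (Lrg1, Sox17 comparison) was called without a filter and 1 with the replicate block. The block changed no other member's call. The 7 members kept direction and call in 334 of 350 recomputed values, 14 changed sign and 2 were newly called. With the replicate block Ephb4 in the Sox17 comparison was at −0.0100.

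With 1 library left out, the Sox7 values ran from −0.67 to 0.23 for Nr2f2, −1.31 to 0.53 for Ackr1, −0.69 to 0.16 for Slc38a5, −2.56 to 0.26 for Lcn2 and −1.59 to 0.53 for Lrg1. A lone library was then assumed to vary like the other groups. Sox17 values ran from −0.14 to 0.39 for Nr2f2 and −0.30 to 0.21 for Ephb4, and the differences between arms from −0.70 to 0.22 for Nr2f2 and −0.16 to 0.71 for Slc38a5. For other genes in the Sox7 comparison the ranges were −7.73 to 0.00 (Ackr4), −5.54 to 3.26 (Slc38a1), −0.74 to 1.91 (Tgfbr1), −0.32 to 2.73 (Cebpb), −1.01 to 2.13 (Slc22a17), −1.71 to 0.59 (Sox17), −0.37 to 1.61 (Efnb1), −0.80 to 0.44 (Socs3) and −0.81 to 1.07 (Slc38a3). In the Sox17 comparison they were −1.42 to 0.36 (Rasa1), −1.50 to 0.11 (Ackr3), −0.95 to 0.27 (Nr2f1) and −0.015 to 1.16 (Sox7). Between the arms they were −3.003 to 5.79 (Slc38a1), −0.30 to 0.55 (Efnb2) and −0.37 to 1.53 (Slc38a3). Slc38a1 and Slc22a17 in the Sox7 comparison were at −0.80 and 0.30 with limma-voom and −0.67 and 0.51 with the replicate block, and Ccl7 in the Sox17 comparison was at −0.12 with limma-voom. The cause of these changes was not tested. The scaling to pan-endothelial genes was chosen after seeing the data.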
